A study of Mus musculus with 18 samples.

Results

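Toll-like receptors (TLRs) are membrane proteins that bind microbial molecules and start inflammatory and interferon signalling. The TLR genes other than Tlr4 were chosen by gene symbol from probe sets that the array's annotation assigns to a single gene. Of the 9 genes so listed, 8 were measured, each by 1 probe set (Tlr1, Tlr2, Tlr3, Tlr6, Tlr7, Tlr8, Tlr9 and Tlr13), out of 19475 genes measured in this way. Tlr5, the flagellin receptor, was not analysed here because no single-gene probe set carried its symbol. Within this family Tlr3 was selected on its measured difference between the genotypes, so that the genotype differences of the receptors within a time are given as descriptions, without a p. The difference between genotypes in the LPS response, and the other genes of the pathway, are given with the calls of the fit over all genes.

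The arrays came from macrophages that were grown from mouse bone marrow in medium conditioned by L929 cells and taken on day 7, from mice whose background was 94% C57BL/6 with 6% 129/Ola. The groups were Wbp7-/- (KO) cells left untreated, KO cells given 10 ug/ml lipopolysaccharide (LPS) for 2 h, KO cells given LPS for 4 h, and Wbp7+/- (HET) cells under the same 3 conditions, with 3 arrays in each of the 6 groups. Wbp7, also named Kmt2b, encodes a methyltransferase of lysine 4 of histone H3, and LPS is a bacterial cell wall product sensed by Tlr4. The HET cells also lack 1 copy of the gene, no wild-type cells were used here, and the labels do not say how the gene was inactivated or whether the replicates came from separate animals, so that the p-values below may measure technical spread only.

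In the mouse, Tlr3 binds double-stranded RNA, Tlr7 and Tlr8 belong to the receptors for single-stranded RNA, Tlr9 binds DNA with unmethylated CpG and Tlr13 binds bacterial ribosomal RNA. These 5 work in endosomes, where the chaperone Unc93b1 takes them. Tlr2 works at the cell surface, paired with Tlr1 for triacylated lipopeptides or with Tlr6 for diacylated ones. Tlr3 signals through the adaptor Ticam1 (TRIF) and the others through Myd88. Tlr3 is itself known as an interferon-induced gene in macrophages.

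Upstream sequences were read from RefSeq on GRCm38.p6 for the 250 bases before the start site of each member, and 8 of the 9 listed genes had at least 1 such window, with 10 windows in all. The 4 shown belong to genes with different courses after LPS: Tlr3, Tlr2 with an early rise, Tlr6 with a rise by 4 h and Tlr13 with a fall. Capitals mark matches, on either strand, to the interferon-stimulated response element (GAAA at both ends with 2 free bases between), the IRF core (AANNGAAA), the GAS element (TTCNNNGAA) or the NF-kB consensus. Every match to the interferon-stimulated response element holds a match to the IRF core. The start sites of the Tlr3, Tlr2 and Tlr6 windows lie inside the annotated span of the gene, which reaches further upstream.
Tlr3, chr8:45410381-45410630, minus strand: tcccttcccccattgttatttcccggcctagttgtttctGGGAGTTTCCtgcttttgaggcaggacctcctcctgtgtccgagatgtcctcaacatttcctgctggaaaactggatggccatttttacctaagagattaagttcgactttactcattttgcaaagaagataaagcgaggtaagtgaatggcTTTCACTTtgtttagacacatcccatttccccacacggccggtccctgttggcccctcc
Tlr2, chr3:83841609-83841858, minus strand: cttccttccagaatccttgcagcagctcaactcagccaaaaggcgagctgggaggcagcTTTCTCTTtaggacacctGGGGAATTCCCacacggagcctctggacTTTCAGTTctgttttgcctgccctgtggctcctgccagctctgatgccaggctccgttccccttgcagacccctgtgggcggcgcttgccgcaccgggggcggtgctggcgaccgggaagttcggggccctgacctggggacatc
Tlr6, chr5:64959167-64959416, minus strand, first of 2 windows: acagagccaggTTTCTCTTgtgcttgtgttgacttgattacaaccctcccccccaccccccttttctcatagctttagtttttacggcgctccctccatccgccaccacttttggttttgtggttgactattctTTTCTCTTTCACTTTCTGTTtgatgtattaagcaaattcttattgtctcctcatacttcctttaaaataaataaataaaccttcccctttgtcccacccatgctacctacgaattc
Tlr13, chrX:106143025-106143274, plus strand: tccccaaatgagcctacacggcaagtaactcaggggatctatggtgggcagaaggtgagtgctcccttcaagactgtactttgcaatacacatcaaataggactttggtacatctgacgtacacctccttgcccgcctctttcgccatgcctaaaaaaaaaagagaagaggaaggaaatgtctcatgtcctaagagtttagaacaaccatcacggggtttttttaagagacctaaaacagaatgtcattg
The Tlr3 window held 1 NF-kB consensus match, 211 bases before the start, and 1 IRF core match, 59 bases before it. In the Tlr2 window the NF-kB matches overlapped each other at 173 and 172 bases before the start, and IRF core matches lay at 191 and 145 bases. The first Tlr6 window held 2 overlapping matches to the interferon-stimulated response element, at 116 and 110 bases, among its 4 IRF core matches, and the second Tlr6 window, not shown, held no match to any motif searched. The Tlr13 window held no match to any of these motifs, but 1 to the PU.1 core (GAGGAAG), which is not in capitals, at 83 bases. Among the windows not shown, the first Tlr1 window and the Tlr9 window likewise held 1 PU.1 core match and no other match. The second Tlr1 window held GAS and IRF core matches, the Tlr8 window GAS matches alone, and the Tlr5 window no match. Over all 32851 windows of this length in the table, 2.98% held the interferon-stimulated response element, 21.3% the IRF core, 7.02% the GAS element, 3.9% the NF-kB consensus and 10.6% the PU.1 core. A match is a description of letters and was not tested for binding.

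Values are log2 signals. A difference is given on the same scale with its standard error (SE) from a limma model of all genes, with 3 arrays per group. The threshold for passing was an adjusted p under 0.05 after Benjamini-Hochberg adjustment over the 19475 genes, and "rose" and "fell" are used of such genes. Array medians were between 8.05 and 8.13, and precision is limited by the number of arrays. The probe set of Wbp7 read between 9.94 and 10.73 over the KO arrays and between 10.05 and 10.97 over the HET arrays, and the genotype difference was -0.24 in untreated cells, -0.06 at 2 h and -0.09 at 4 h (SE 0.156), none of which passed. The untreated KO arrays read 10.35 to 10.47 and the untreated HET arrays 10.49 to 10.97, while the genotypes overlapped at 2 h and at 4 h. The part of the transcript it covers was not stated in the labels or files. Of 7 measured macrophage markers, Adgre1, Csf1r, Cd68 and Lyz2 each lay between the 98.4 and 99.9 percentiles of their array. Itgam lay between 93.8 and 97.4, Fcgr1 between 92.8 and 98.8 and Mertk between 69.5 and 92.3. Of 10 conventional dendritic cell markers, Flt3 lay between the 27.3 and 39.2 percentiles, Xcr1 between 28.0 and 38.7, Clec9a between 13.4 and 44.5, Ccr7 between 39.4 and 69.3 and Cd24a between 72.0 and 93.2. At 4 h of LPS, 1 of these 10 rose in KO cells (Clec9a, by 1.23), where 6.48% of all genes rose. In HET cells 4 rose (Clec9a by 0.92, Ccr7 by 1.29, Xcr1 by 0.39 and Dpp4 by 0.28), where 15.7% of all genes rose. None of the 10 fell, where 9.28% of all genes fell in KO cells and 20.7% in HET cells. The mean level of the 10 was 7.92 to 8.05 on KO arrays and 7.81 to 8.08 on HET arrays at 4 h, against 7.68 to 7.78 on untreated KO and 7.56 to 7.75 on untreated HET arrays, and their part in the receptors' values was not tested. Of 5 measured plasmacytoid dendritic cell markers, Siglech lay between the 30.5 and 46.3 percentiles and Ccr9 between 23.4 and 62.4. Ly6d lay between 42.6 and 53.3, Pacsin1 between 44.0 and 50.6 and Tcf4 between 90.7 and 96.6.

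The HET arrays numbered replicate 1 stood apart from the rest at all 3 times. The SD over genes of the difference between arrays of a group was 0.435 to 0.531 in pairs with these arrays and 0.175 to 0.279 in the others. Against the other HET arrays, the median of 15 measured cell cycle genes differed by -3.78, -3.52 and -2.82 in untreated cells, at 2 h and at 4 h, and that of 7 class II antigen presentation genes by 2.02, 1.58 and 1.48. The median of 22 interferon response genes differed there by 0.68, 0.57 and 0.25. Tlr3 on these arrays differed from the other HET arrays by -0.14 in untreated cells, 0.51 at 2 h and 0.05 at 4 h, and Tlr13 by 0.08, -0.37 and -1.09. No LPS call of a receptor in HET cells was gained or lost without these arrays. Receptor calls in KO cells that changed without them are named below. Counts of the pathway gene lists below are given without them where they moved by over 1.5 times. The dendritic cell marker lists were not recounted without them.

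Tlr3 was lower in KO than in HET macrophages at every time, and LPS raised it in both genotypes, in HET cells already at 2 h. In KO cells Tlr3 read 8.45, 8.12 and 7.67 in untreated cells, 8.37, 8.01 and 8.08 at 2 h, and 10.97, 10.31 and 10.49 at 4 h. HET cells read 9.40, 9.58 and 9.50 untreated, 10.86, 10.13 and 10.58 at 2 h, and 12.002, 11.975 and 11.920 at 4 h. At each time the highest KO array lay below the lowest HET array. Over all arrays Tlr3 lay between the 44.3 and 92.2 percentiles of its array. The untreated and 2 h KO values, 7.67 to 8.45, lay around the array medians of 8.05 to 8.13. How far these KO signals stood above background was not tested, which limits how the 2 h response in KO cells and the genotype differences can be read. The group means ± SD (n = 3 each) were 8.08 ± 0.391 in untreated KO cells, 8.15 ± 0.189 in KO cells at 2 h, 9.49 ± 0.0878 in untreated HET cells, 10.52 ± 0.370 in HET cells at 2 h, 10.59 ± 0.338 in KO cells at 4 h and 11.97 ± 0.0419 in HET cells at 4 h. In that order the first and second groups overlapped, as did KO at 4 h and HET at 2 h, and the other neighbours did not.

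**Figure D1:**
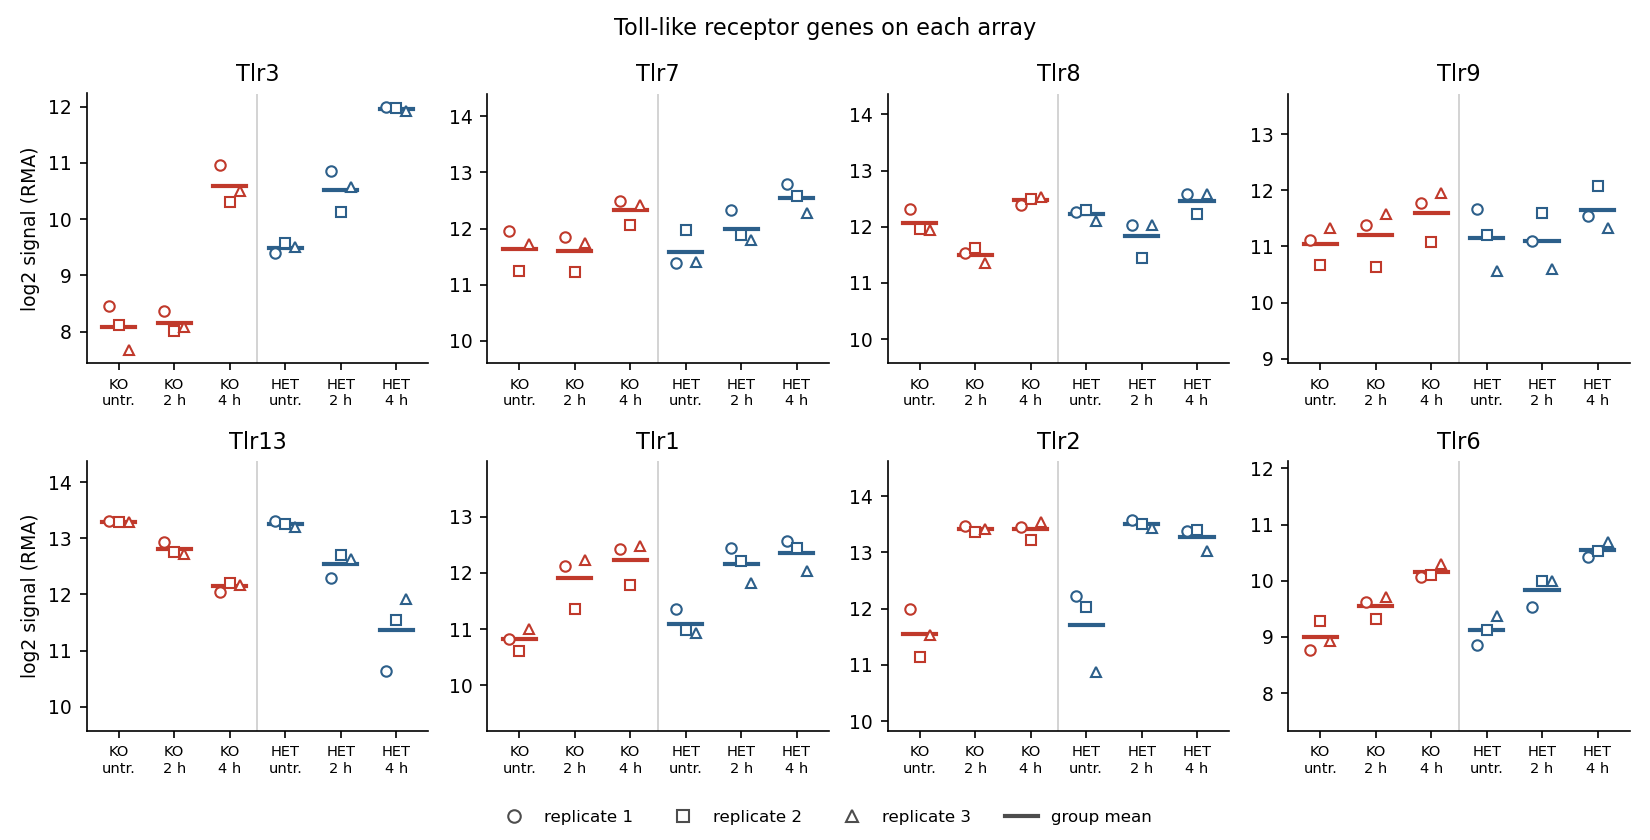
Log2 signal (vertical axis) of the 8 measured receptor genes on each of the 18 arrays, with KO groups in red to the left of HET groups in blue and the times in order within each genotype. Symbols give the replicate number and bars the group mean. Tlr3 is lower on every KO array than on every HET array of the same time, and the Tlr13 means are lower at each later time in both genotypes.

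Tlr3 rose by 4 h in both genotypes, and at 2 h the response passed in HET cells and not in KO cells. At 2 h the difference from untreated cells was 0.07 in KO cells (SE 0.206, limma adjusted p = 0.939) and 1.03 in HET cells (SE 0.206, adjusted p = 0.00256). Replicate by replicate, it was -0.08, -0.11 and 0.41 in KO cells and 1.46, 0.55 and 1.08 in HET cells. At 4 h it was 2.51 in KO cells (limma adjusted p = 7.1e-07), a 5.70-fold rise, and 2.47 in HET cells (adjusted p = 4.65e-07), a 5.56-fold rise. Between 2 h and 4 h Tlr3 rose by 2.44 in KO cells (limma adjusted p = 6.82e-05) and by 1.44 in HET cells (adjusted p = 0.000539).

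The difference between the genotypes in the 2 h response of Tlr3, -0.96 (SE 0.291, 95% interval -1.58 to -0.34), did not pass over all genes (limma adjusted p = 0.554). It shares its values with the contrast for which Tlr3 was singled out. The corresponding difference at 4 h was 0.04, with a 95% interval from -0.58 to 0.66. Without the HET arrays of replicate 1, the 2 h response in HET cells was 0.82 (limma adjusted p = 0.0379).

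The genotype difference of Tlr3 was -1.41 in untreated cells (95% interval -1.85 to -0.97), -2.37 at 2 h (-2.81 to -1.93) and -1.38 at 4 h (-1.81 to -0.94), each with SE 0.206. KO signals were thus lower by factors of 2.66, 5.17 and 2.60. Without the HET arrays of replicate 1 the differences were -1.46, -2.20 and -1.36. Counted from the most negative of the 19475 genes, Tlr3 ranked 31 in untreated cells, 19 at 2 h and 75 at 4 h. Tlr3 was selected on this difference, so that these ranks and intervals are descriptions and nothing is read from them. In macrophages fewer transcripts per cell and fewer cells with the transcript cannot be told apart in these bulk arrays.

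The other 7 receptors differed less between the genotypes than Tlr3 did. Their differences ran from -0.27 to 0.06 in untreated cells, from -0.39 to 0.26 at 2 h and from -0.40 to 0.78 at 4 h. The 95% intervals of these 7 reached from -0.83 to 0.61 in untreated cells, from -0.88 to 0.83 at 2 h and from -0.77 to 1.24 at 4 h, so that moderate differences in either direction are within the error. Tlr3 was the 1 member of 8 that passed at each time, as lower in KO cells, where 0.359% of all genes passed as lower in untreated cells, 1.54% at 2 h and 1.10% at 4 h. These counts come from the contrast used to choose Tlr3 and nothing is read from them. Arrays of KO and HET cells did not overlap for 1 member in untreated cells, 2 at 2 h and 3 at 4 h, where 8.63%, 19.9% and 27.3% of all genes did not overlap.

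**Figure D2:**
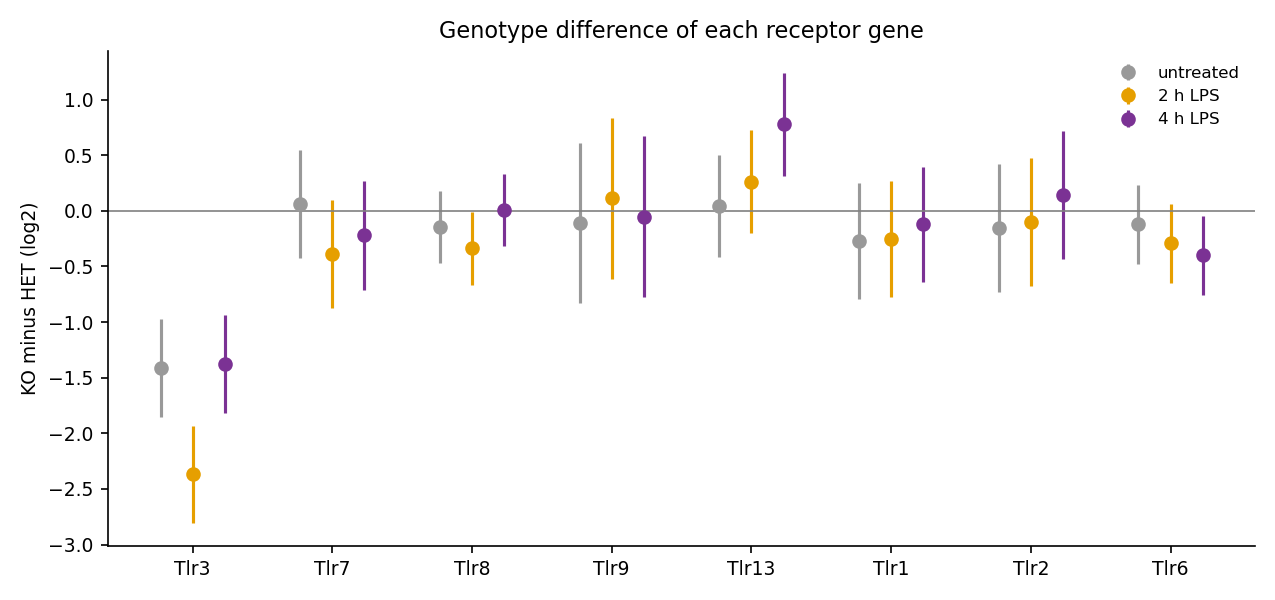
Log2 difference between KO and HET cells (vertical axis) for each receptor gene, in untreated cells and after 2 h and 4 h of LPS, with the 95% interval of the limma fit as bars. The points of Tlr3 lie at -1.41, -2.37 and -1.38, and those of the other 7 genes lie between -0.40 and 0.78.

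Among the surface receptors Tlr2, the shared partner for lipopeptides, rose early and stayed high. It read 11.99, 11.14 and 11.54 in untreated KO cells, 13.47, 13.36 and 13.41 at 2 h and 13.46, 13.23 and 13.54 at 4 h. The HET arrays read 12.23, 12.02 and 10.87 untreated, 13.58, 13.51 and 13.44 at 2 h and 13.39, 13.39 and 13.03 at 4 h. Every LPS array lay above every untreated array of either genotype. At 2 h the rise was 1.86 in KO cells (SE 0.270, limma adjusted p = 0.00063) and 1.80 in HET cells (adjusted p = 0.000253), and at 4 h it was 1.85 in KO cells (adjusted p = 0.000171) and 1.56 in HET cells (adjusted p = 0.000346). The difference between 4 h and 2 h passed in neither genotype, with 95% intervals of -0.58 to 0.57 in KO cells and -0.82 to 0.33 in HET cells. The untreated HET arrays spread widely, with an SD of 0.732.

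Tlr1, a partner of Tlr2, rose to 12.13, 11.36 and 12.23 at 2 h and 12.42, 11.78 and 12.48 at 4 h in KO cells, against 10.83, 10.61 and 11.01 in untreated KO cells. It reached 12.45, 12.21 and 11.82 at 2 h and 12.57, 12.44 and 12.04 at 4 h in HET cells, against 11.36, 10.98 and 10.92 in untreated HET cells. LPS and untreated arrays did not overlap within either genotype. The 2 h rise was 1.09 in KO cells (limma adjusted p = 0.0189) and 1.07 in HET cells (adjusted p = 0.00657), and the 4 h rise was 1.41 in KO cells (adjusted p = 0.000776) and 1.26 in HET cells (adjusted p = 0.000883). The 2 h call in KO cells was lost on leaving out replicate 1 or 2 of the untreated KO arrays or replicate 1 or 3 of the 2 h KO arrays, with adjusted p up to 0.115.

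Tlr6, the other partner of Tlr2, rose by 4 h in both genotypes, and in HET cells each step, to 2 h and from 2 h to 4 h, passed. It read 8.78, 9.29 and 8.93 untreated, 9.62, 9.32 and 9.71 at 2 h and 10.06, 10.10 and 10.29 at 4 h in KO cells. In HET cells it read 8.86, 9.13 and 9.37 untreated, 9.53, 10.01 and 9.99 at 2 h and 10.42, 10.53 and 10.69 at 4 h. The 3 times did not overlap within either genotype, and at 4 h every KO array lay below every HET array. The 4 h rise was 1.15 in KO cells (SE 0.167, limma adjusted p = 0.000162) and 1.43 in HET cells (adjusted p = 1e-05). At 2 h it was 0.55 in KO cells (adjusted p = 0.108, or 0.0164 with replicate number within genotype as a random block) and 0.72 in HET cells (limma adjusted p = 0.00712). Between 2 h and 4 h Tlr6 differed by 0.60 in KO cells (limma adjusted p = 0.0553, or 0.00741 with that block) and rose by 0.70 in HET cells (adjusted p = 0.0157), a call lost without replicate 3 at 4 h (adjusted p = 0.0534). The genotype difference at 4 h was -0.40 (95% interval -0.75 to -0.04).

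Tlr13, the receptor for bacterial ribosomal RNA, fell in both genotypes at 4 h, and in the fit of all arrays without a replicate block no other member fell after LPS. It read 13.30, 13.29 and 13.29 in untreated KO cells, 12.92, 12.76 and 12.73 at 2 h and 12.05, 12.21 and 12.17 at 4 h. HET cells read 13.31, 13.26 and 13.19 untreated, 12.29, 12.70 and 12.63 at 2 h and 10.64, 11.55 and 11.91 at 4 h. The 3 times did not overlap within either genotype, and the HET arrays of replicate 1 were the lowest at 2 h and 4 h. At 4 h Tlr13 fell by 1.15 in KO cells (SE 0.216, limma adjusted p = 0.00147) and by 1.88 in HET cells (adjusted p = 8.61e-06). At 2 h the difference was -0.49 in KO cells (limma adjusted p = 0.365) and -0.71 in HET cells (adjusted p = 0.0358).

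Without the HET arrays of replicate 1, the 4 h change of Tlr13 in HET cells was -1.49 (limma adjusted p = 4.27e-07) and the 2 h change -0.56 (adjusted p = 0.0035), while the 2 h change of -0.49 in KO cells passed (adjusted p = 0.00349). The 2 h call in HET cells was lost on leaving out any 1 of the untreated HET arrays, or replicate 1 or 3 at 2 h, with adjusted p up to 0.166. All 3 KO arrays lay above all 3 HET arrays at 2 h and at 4 h. The genotype difference was 0.26 at 2 h (95% interval -0.20 to 0.72) and 0.78 at 4 h (0.32 to 1.24), and at 4 h it was 0.41 without the HET arrays of replicate 1. Between 2 h and 4 h the change was -0.66 in KO cells (limma adjusted p = 0.118, or 0.0273 with the random block) and -1.17 in HET cells (adjusted p = 0.00322). The difference between the genotypes in the 4 h response, 0.73 (95% interval 0.08 to 1.38), did not pass (limma adjusted p = 0.625).

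Tlr8, which is grouped with the RNA receptors, had its lowest level at 2 h in both genotypes and rose between 2 h and 4 h. It read 12.32, 11.96 and 11.95 untreated, 11.53, 11.62 and 11.36 at 2 h and 12.39, 12.49 and 12.53 at 4 h in KO cells. The HET arrays read 12.26, 12.30 and 12.10 untreated, 12.04, 11.45 and 12.03 at 2 h and 12.58, 12.23 and 12.58 at 4 h. The 2 h arrays were the lowest 3 in each genotype. Between 2 h and 4 h Tlr8 rose by 0.97 in KO cells (SE 0.153, limma adjusted p = 0.0016) and by 0.62 in HET cells (adjusted p = 0.0191). The HET call was lost without replicate 1 or 3 at 4 h or replicate 2 at 2 h, with adjusted p up to 0.102. The 2 h difference from untreated cells was -0.57 in KO cells (limma adjusted p = 0.0556) and -0.38 in HET cells (adjusted p = 0.119), and with the random block both passed (adjusted p = 0.0111 in KO cells and 0.0413 in HET cells). Without the HET arrays of replicate 1 the KO difference passed as a fall (limma adjusted p = 0.0306). At 4 h it was 0.39 in KO cells (limma adjusted p = 0.102, or 0.0341 with the block) and 0.24 in HET cells (adjusted p = 0.212).

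Tlr7, a receptor for single-stranded RNA, rose by 4 h in HET cells. It read 11.96, 11.25 and 11.72 untreated, 11.86, 11.22 and 11.75 at 2 h and 12.48, 12.07 and 12.42 at 4 h in KO cells. In HET cells it read 11.38, 11.98 and 11.40 untreated, 12.32, 11.88 and 11.79 at 2 h and 12.79, 12.58 and 12.27 at 4 h. Arrays at 4 h lay above the untreated arrays of the same genotype. At 4 h Tlr7 rose by 0.96 in HET cells (limma adjusted p = 0.00412, or 0.0396 at 0.74 without replicate 1), and in KO cells the difference was 0.68 (adjusted p = 0.0563, or 0.00565 with the random block). At 2 h it was -0.04 in KO cells and 0.41 in HET cells, and neither passed. From 2 h to 4 h the difference was 0.72 in KO cells (limma adjusted p = 0.104, or 0.0102 with the block) and 0.55 in HET cells (adjusted p = 0.191, or 0.0324 with the block). Tlr7 and Tlr9 are also known from plasmacytoid dendritic cells. Of 5 measured markers of these cells, 1 rose at 4 h in KO cells (Ccr9), where 6.48% of all genes rose. In HET cells 4 rose at 4 h (Ccr9, Tcf4, Ly6d and Pacsin1), where 15.7% of all genes rose. Siglech differed by 0.06 in KO cells and 0.07 in HET cells, without passing. The 5 markers had a mean level of 8.64 to 8.77 on KO arrays and 8.88 to 9.08 on HET arrays at 4 h. On untreated arrays they had 8.25 to 8.30 in KO cells and 8.22 to 8.56 in HET cells. Their part in the Tlr7 values was not tested.

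Tlr9, the receptor for CpG DNA, passed in no LPS comparison. It read 11.12, 10.67 and 11.32 untreated, 11.38, 10.64 and 11.58 at 2 h and 11.77, 11.08 and 11.96 at 4 h in KO cells. HET cells read 11.67, 11.20 and 10.56 untreated, 11.09, 11.59 and 10.60 at 2 h and 11.55, 12.08 and 11.34 at 4 h. All 3 times overlapped in both genotypes. The 4 h difference was 0.57 in KO cells (95% interval -0.16 to 1.29) and 0.51 in HET cells (-0.21 to 1.23), with an SE of 0.339, the widest of the 8 members.

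**Figure D3:**
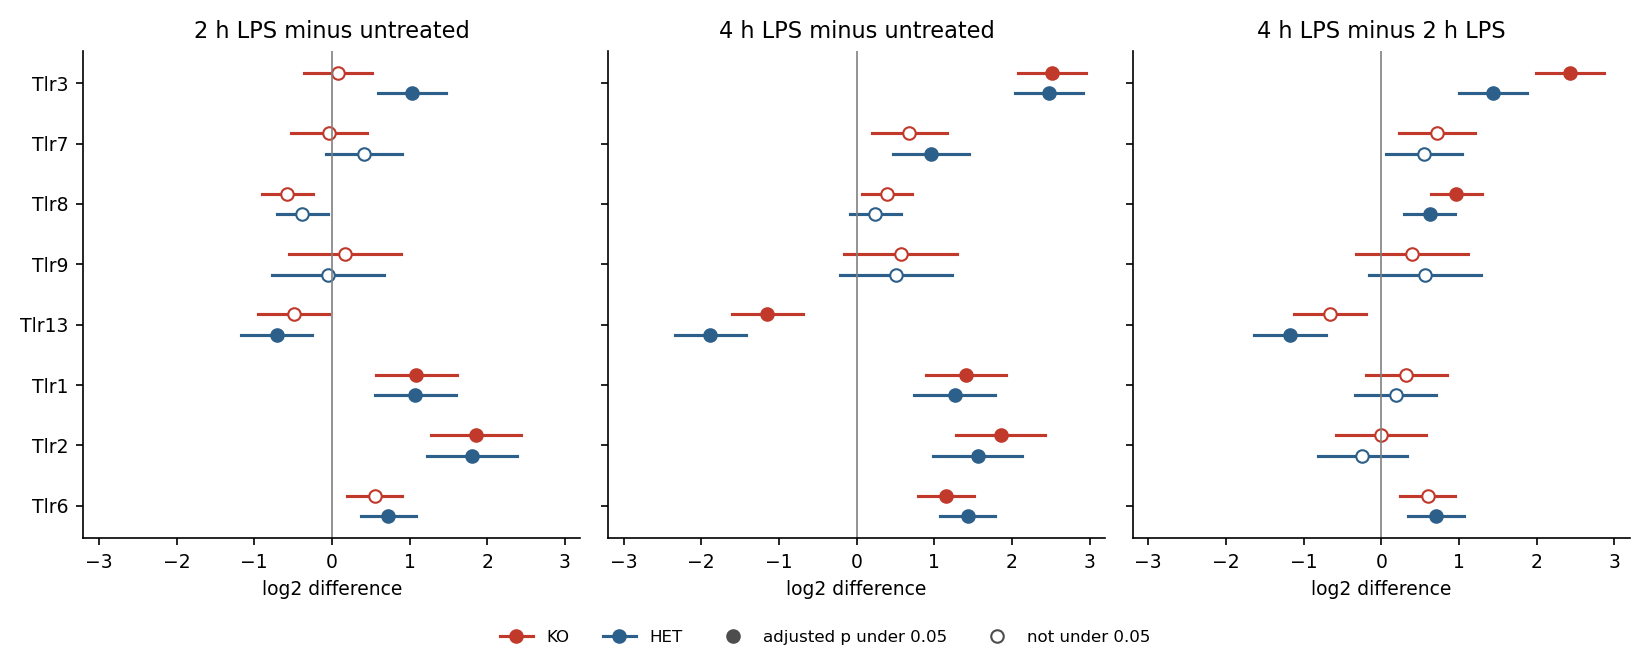
Log2 differences (horizontal axis) of the 8 receptor genes for 2 h LPS against untreated, 4 h LPS against untreated, and 4 h against 2 h, with KO in red above HET in blue. Bars are 95% intervals of the limma fit and filled points passed at an adjusted p under 0.05. Tlr3 lies at 0.07 in KO and 1.03 in HET cells at 2 h, and at 2.51 and 2.47 at 4 h.

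Over the family, 2 of 8 members rose and none fell at 2 h in KO cells, where 2.00% of all genes rose and 1.35% fell. At 2 h in HET cells 4 rose and 1 fell, where 5.56% of all genes rose and 10.0% fell. At 4 h in KO cells 4 rose and 1 fell, where 6.48% of all genes rose and 9.28% fell. In HET cells at 4 h 5 rose and 1 fell, where 15.7% rose and 20.7% fell. Between 2 h and 4 h, 2 rose and none fell in KO cells, where 2.69% of all genes rose and 1.69% fell, and 3 rose and 1 fell in HET cells, where 3.80% rose and 4.39% fell. The members were chosen with results known, and nothing particular to the family is read from these counts. In KO cells without the HET arrays of replicate 1, 5 members passed at 2 h, with Tlr6, Tlr8 and Tlr13 added. At 4 h 6 passed, with Tlr7 added, and 5 between 2 h and 4 h, with Tlr6, Tlr7 and Tlr13 added. The share of all genes in that fit is not given here, and nothing is read from its counts. No member passed for the difference between genotypes in the response at 2 h (0% of all genes) or at 4 h (0.0513%) in the limma fit. At an unadjusted limma p under 0.05 there was 1 at each time, Tlr3 at 2 h and Tlr13 at 4 h. Of the 19475 genes, 1099 at 2 h and 1403 at 4 h lay under that p. Nothing is read from these 2 members, and the Tlr3 value shares its arrays with the contrast for which Tlr3 was singled out.

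Tlr4, the LPS receptor, moved in the opposite direction to its surface relatives. It fell by 1.12 at 2 h and 1.05 at 4 h in KO cells (limma adjusted p = 0.0254 and 0.0114) and by 1.20 and 0.93 in HET cells (adjusted p = 0.0049 and 0.0124). Tlr12 lay between the 26.2 and 33.4 percentiles of its array. It rose by 0.26 at 4 h in HET cells (limma adjusted p = 0.0372), and its 4 h difference in KO cells was -0.04.

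Tlr3 and Tlr13 each had no close counterpart among the receptors measured here. Likeness was measured as the root mean square difference between the 6 group means of 2 genes, each centred on its own mean, and the median over all genes was 1.36 from Tlr3. Tlr6 was the nearest member at 0.961, with 2.29% of all genes nearer, and Tlr13 was the farthest at 1.99, with 98.8% nearer. The nearest member to Tlr13 was Tlr8, at 0.885. Each of the other 6 had a nearer member, with 0.198 between Tlr7 and Tlr9, 0.219 between Tlr1 and Tlr6, 0.255 between Tlr8 and Tlr9 and 0.320 between Tlr2 and Tlr1. The measure uses the genotype difference for which Tlr3 was singled out.

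The 5 genes nearest to Tlr3 over the 6 group means were Il13ra1 (0.218), a receptor chain for interleukin 13, P2ry14 (0.254), a receptor for UDP-sugars, Zbp1 (0.346), a sensor of Z-form nucleic acids, BC147527 (0.347) and Adgrg6 (0.386), an adhesion receptor. In all, 18 genes lay within 0.5. Il13ra1 differed at 2 h of LPS by 0.33 in KO cells and 0.75 in HET cells, and at 4 h by 2.33 in KO cells and 2.38 in HET cells. Its genotype differences were -1.25 in untreated cells, -1.67 at 2 h and -1.30 at 4 h. P2ry14 had genotype differences of -0.999, -1.74 and -1.39 at these times, and Zbp1 of -1.36, -1.61 and -0.64. The measure uses the genotype difference of Tlr3, so that a like difference in these genes follows from their choice.

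**Figure D4:**
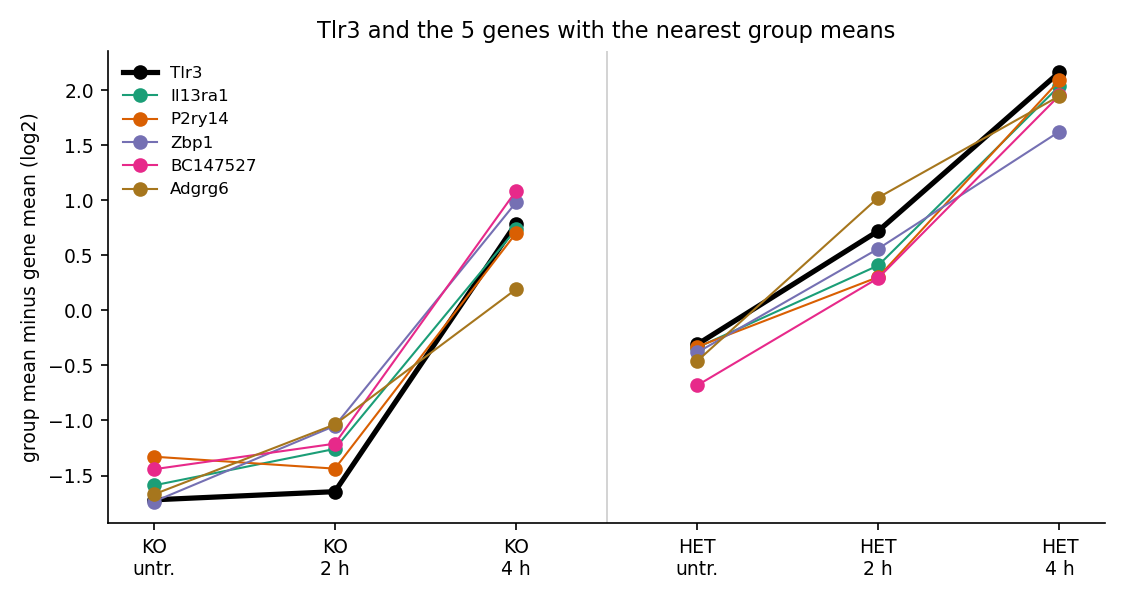
Group means of Tlr3 and of the 5 genes nearest to it, each minus the gene's own mean (vertical axis, log2), over the 6 groups with KO groups to the left. Tlr3 stays flat between untreated cells and 2 h of LPS in KO cells, with a difference of 0.07, and is 2.44 higher at 4 h than at 2 h.

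A list of 17 cytosolic sensing genes held sensors of viral nucleic acid, which work beside Tlr3, the adaptors Mavs and Sting1, and Nod1 and Nod2, which sense bacterial peptidoglycan. At 2 h 6 of 17 rose and none fell in KO cells, and 10 rose (15 with the random block) and 1 fell in HET cells, where 2.00% of all genes rose in KO cells and 5.56% in HET cells. In KO cells at 2 h, 7 rose and 1 fell without the HET arrays of replicate 1, and 8 rose and 1 fell with the random block. At 4 h 15 rose and 1 fell in either genotype, where 6.48% of all genes rose in KO cells and 15.7% in HET cells, and the list's median was 1.66 in KO cells and 1.34 in HET cells, against 0.02 and 0.09 over all genes. Nod1 rose at 4 h by 3.38 in KO cells and 3.92 in HET cells, and Oasl1, an interferon-induced oligoadenylate synthetase-like protein, by 3.87 and 3.13. Mavs, the adaptor of the cytosolic RNA sensors, fell at 4 h by 0.72 in KO cells and 1.25 in HET cells. Between the genotypes, 13 of the 17 passed as lower in KO cells at 2 h, where 1.54% of all genes did, with a median of -0.80 against 0.00 over all genes, and none passed in untreated cells (median -0.57) or at 4 h (median -0.30). Without the HET arrays of replicate 1, 5 of the 17 passed at 2 h, with a median of -0.64.

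Of 22 measured interferon response genes, 12 rose at 2 h in KO cells, where 2.00% of all genes rose, and 14 in HET cells, where 5.56% did. At 4 h 18 rose in KO cells, against 6.48% of all genes, and 19 in HET cells, against 15.7%, and none of the 22 fell at either time. Mx2 and Mx1, antiviral GTPases, rose at 4 h by 4.45 and 4.52 in KO cells and by 4.20 and 3.67 in HET cells. Ifnb1, which encodes interferon beta, differed at 2 h by 0.66 in KO cells, without passing, and rose by 2.88 in HET cells, and its genotype difference at 2 h was -2.21. In all, 7 of the 22 passed as lower in KO cells at 2 h, where 1.54% of all genes did. The count was 6 without the HET arrays of replicate 1 and 8 with the random block. None passed in untreated cells or at 4 h (1 at 4 h without those arrays), where 0.359% and 1.10% of all genes passed as lower. For the difference between genotypes in the 2 h response none of the 22 passed, and 1 did, as lower, with the random block. The median genotype difference of the list was -0.75 in untreated cells, -0.88 at 2 h and -0.24 at 4 h, set beside -1.41, -2.37 and -1.38 for Tlr3. The part of the interferon response in the Tlr3 values was not tested.

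Among genes that carry and process the receptors, 1 of 13 fell at 2 h in KO cells and 2 in HET cells (4 with the random block), where 1.35% and 10.0% of all genes fell, and none rose. At 4 h 1 rose and 3 fell in KO cells, where 9.28% of all genes fell, and the counts were 2 and 5 both without the HET arrays of replicate 1 and with the random block. In HET cells 1 rose and 7 fell at 4 h, where 20.7% of all genes fell, and 1 and 5 without those arrays. The median at 4 h was -0.11 in KO cells and -0.27 in HET cells, against 0.02 and 0.09 over all genes. Nrros, an endoplasmic reticulum protein known to restrain TLR signalling, fell at 4 h by 0.65 in KO cells and 1.16 in HET cells, and Ap3b1, a subunit of an endosomal sorting adaptor, rose by 0.47 and 0.91. Cnpy3, a TLR chaperone, fell by 0.80 in HET cells, and in KO cells the difference was -0.46 (limma adjusted p = 0.110, 0.0209 without the HET arrays of replicate 1 and 0.0491 with the random block). Unc93b1 itself differed at 4 h by 0.16 in KO cells and 0.10 in HET cells and passed in no comparison. Ap3b1 was the 1 gene of this list to pass between genotypes, at 4 h, with a difference of -0.50, where 1.10% of all genes passed as lower. None of the list passed between genotypes without the HET arrays of replicate 1.

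Among 10 co-receptors and accessory proteins, Cd14, which hands LPS to Tlr4, rose at 2 h by 0.97 in KO cells and 1.12 in HET cells. Hmgb1, a nuclear protein that binds TLR ligands, fell at 4 h by 1.24 in HET cells, and the difference in KO cells was -0.63 (limma adjusted p = 0.284, or 0.0131 without the HET arrays of replicate 1). No other of these 10 passed in the LPS comparisons of the fit without a block. In that fit 2.00% of all genes rose at 2 h in KO cells and 5.56% in HET cells. At 4 h 6.48% rose and 9.28% fell in KO cells, and 15.7% rose and 20.7% fell in HET cells. With the random block, 2 rose and 1 fell at 4 h in KO cells, with Marco (0.95) and Rftn1 (-0.32) added, and 3 rose and 2 fell in HET cells, with Rftn1 (0.32), Msr1 (0.20) and Cd36 (-0.56) added. None passed between the genotypes at any time, where 0.359% of all genes passed as lower in untreated cells, 1.54% at 2 h and 1.10% at 4 h. With the random block Rftn1 did, at 4 h (-0.62). Shares of all genes with the block are not given here, and nothing is read from its counts.

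Of 20 measured genes of TLR signalling, 4 rose at 2 h (6 without the HET arrays of replicate 1 and 8 with the random block) and 9 at 4 h in KO cells, and none fell (1 at 4 h without those arrays or with the block, Irf3). In HET cells 9 rose at 2 h and none fell, and 11 rose and 3 fell at 4 h. Of all genes 2.00% rose at 2 h and 6.48% at 4 h in KO cells, and 5.56% and 15.7% in HET cells. At 4 h 9.28% of all genes fell in KO cells and 20.7% in HET cells. Without the HET arrays of replicate 1, 12 rose and 1 fell at 4 h in HET cells, with the falls of Irak1 (limma adjusted p = 0.0544) and Tollip (adjusted p = 0.0751) lost and Ticam1 added. Tnfaip3, a ubiquitin-editing inhibitor of the pathway, rose at 4 h by 3.35 in KO cells and 3.61 in HET cells, and Ikbke, a kinase upstream of interferon induction, by 2.32 and 1.97. Irf3, the transcription factor activated downstream of Ticam1, and Irak1, a kinase downstream of Myd88, fell at 4 h in HET cells by 0.65 and 0.48, and in KO cells the differences were -0.33 and -0.25. Myd88 rose at 4 h by 1.25 in KO cells and 1.21 in HET cells, while Ticam1, the adaptor of Tlr3, differed by 0.32 and 0.12 without passing (in HET cells 0.49 without those arrays, limma adjusted p = 0.0416). None of the 20 passed between the genotypes at any time, where 0.359% of all genes passed as lower in untreated cells, 1.54% at 2 h and 1.10% at 4 h.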

How the data were processed

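The deposited files hold log2 signals per probe set of Affymetrix gene arrays, which the authors made with RMA in Partek 6.5, per the submitters' processing notes. Its settings and the genome build were not given in the sources used here. Per the labels' protocols, total RNA was amplified with a whole-transcript kit. The values were analysed as deposited, as arrays with no count or depth per sample.

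Of 25344 probe sets, 1530 with several genes and 2677 with none were left out, and the 21137 others cover 19475 genes. Where a gene had several probe sets (915 genes), that of highest mean was used. A single limma 3.58.1 model in R 4.3.3 held a mean for each of 6 groups, with 12 residual degrees of freedom. It was tested on simulated data. Python 3.11.15 with matplotlib 3.10.9 drew the figures.

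The members and gene lists were chosen with earlier results of these data known. Named were all members, Tlr4, Tlr12 and Wbp7, the 5 genes nearest to Tlr3, and up to 2 highest and 2 lowest passing genes per list at 4 h in HET cells. Ifnb1, Unc93b1, Myd88, Ticam1, Tollip, Marco, Rftn1, Msr1, Cd36 and the markers given with a level were named after their values were seen. Lists of trafficking, co-receptor, signalling, cytosolic sensor and interferon response genes held 13, 10, 23, 17 and 26 genes.

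Deviations from group means correlated between same-numbered arrays of a genotype (r 0.32 to 0.80 over genes in 18 pairs), and across genotypes r ran from -0.353 to 0.390 in 27 pairs. The number was therefore taken as a culture within genotype, which the labels do not state, and used as a random block (correlation 0.398). Other alternatives were median centring, quantile normalization, dim genes left out (below the 40th percentile), mean of probe sets, an intensity trend with robust prior, array weights, the contrast's arrays alone, a 2-fold minimum, a fixed block, and arrays left out. The trafficking, co-receptor, signalling, cytosolic sensor and interferon response lists were also counted without the HET arrays of replicate 1 and with the random block. The marker lists were not. The random block was chosen after seeing the data.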

Additional observations from a re-analysis of the deposited data

How the results depend on the processing

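The number of members that passed varied for KO cells at 2 h, where it was 2, and 4 with quantile normalization, with the contrast's arrays alone and with the fixed or the random replicate block, and 5 with array weights or without the HET arrays of replicate 1. Between 2 h and 4 h in KO cells it was 2, and 5 with array weights, with the contrast's arrays alone, with the random replicate block or without those HET arrays, and 1 at a 2-fold minimum. At 4 h in KO cells it was 5, with Tlr7 added without those HET arrays and Tlr7 and Tlr8 added with the random replicate block. In HET cells it was 4 between 2 h and 4 h, 2 at a 2-fold minimum and 1 with the contrast's arrays alone, and 5 at 2 h, or 3 at a 2-fold minimum. With the random replicate block Tlr7 was added between 2 h and 4 h and Tlr8 at 2 h in HET cells. Between genotypes Tlr3 was the 1 member to pass, and at 4 h there were 2, with Tlr13 added, with array weights, the fixed replicate block or without those HET arrays, while in untreated cells there were 0 with the contrast's arrays alone. Tlr3 was selected on this contrast, so that nothing is read from its passing under these settings. Leaving out each array in turn gave 1 to 3 members at 2 h, 5 to 6 at 4 h and 2 to 3 between 2 h and 4 h in KO cells. Of the 19475 genes, 412 to 827, 2026 to 3566 and 441 to 1102 passed there. In HET cells it gave 4 to 5 at 2 h and 2 to 4 between 2 h and 4 h, where 1900 to 3505 and 795 to 2575 genes passed. Between genotypes it gave 1 to 2 at 2 h and at 4 h, where 147 to 960 and 101 to 1091 genes passed. Shares of all genes under the other settings are not given here, and nothing is read from how member or list counts changed with them. Of differences that had not passed, some changed sign. Tlr2 between 2 h and 4 h in KO cells was 0.024 with centring and -0.071 to 0.088 with an array left out. At 2 h in KO cells, leaving out an array gave -0.13 to 0.26 for Tlr3, -0.23 to 0.16 for Tlr7 (0.16 with array weights) and -0.0217 to 0.45 for Tlr9. Tlr9 at 2 h in HET cells was 0.10 with array weights, 0.21 without replicate 1 and -0.34 to 0.21 with an array left out. The random replicate block added passes and removed none among the LPS results, and the cause of these changes was not tested.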
